A study of Zonotrichia albicollis with 38 samples.

Results

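The genes described here build, move or service motile cilia in the brain of the white-throated sparrow (Zonotrichia albicollis). They are the entries of a deposited count table whose symbols begin with DNAH, DNAI, RSPH, SPAG, TEKT, SPEF or IFT and a number, plus FOXJ1 and WDR78, and which average at least 0.5 CPM (reads of a gene scaled to the size of the library) in at least 1 of the regions sampled. Of 15111 entries in the table, 38 carried such a symbol and 37 met the minimum. No entry carried a CFAP symbol. The lowest of the 37 genes was DNAH8, at a mean of 1.10 CPM in its higher region, and the one left out, TEKT3, held a single count over all libraries, a mean of 0.00434 CPM.

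Libraries came from 2 brain regions, the hypothalamus (HYP) and the medial amygdala (MeA), of the same 19 free-living males. There were 10 birds of the white-striped morph (WS) and 9 of the tan-striped morph (TS). WS birds carry a rearranged copy of chromosome ZAL2 that TS birds lack. All of the birds were caught in the territorial season, a day after song playback had staged an intrusion, so no group stands for an unchallenged bird. Each library pooled 4 frozen punches. The HYP punches took in the ventromedial and anterior hypothalamus, the paraventricular nucleus and the caudal end of the medial preoptic area, and the MeA punches held mostly but not only MeA. The labels give the age classes ASY (8 WS and 2 TS birds) and SY (2 WS and 7 TS birds), and they put 8 WS and 6 TS birds in stage E. The other WS birds are labelled stage L or I, and the other TS birds L, I or L/I. All stages enter each comparison unless stage E birds are named.

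Motile cilia beat because dynein motors, set in outer and inner arms along the microtubule doublets of the axoneme, slide the doublets past each other. Radial spokes and the central apparatus coordinate that sliding, and tektins lie inside the doublets. Intraflagellar transport (IFT) carries cargo into the cilium with the IFT-B complex and back with IFT-A, and it serves the single immotile primary cilium of neurons and glia as well as motile cilia. In the brain, tufts of motile cilia are the mark of the ependymal cells that line the ventricles, where FOXJ1, a forkhead transcription factor, switches on the motile programme. The roles named below come from work in human, mouse and the alga Chlamydomonas.

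By role the 37 genes fell into 11 of dynein arms (DNAH1, DNAH3, DNAH5, DNAH8, DNAH9, DNAH10, DNAH12, DNAH17, DNAI1, DNAI2 and WDR78), 4 of radial spokes (RSPH1, RSPH3, RSPH9 and RSPH10B), 4 of the central apparatus (SPAG6, SPAG16, SPAG17 and SPEF2), 2 tektins (TEKT1 and TEKT2), 3 of IFT-A, 9 of IFT-B, FOXJ1, and 3 other SPAG genes (SPAG1, SPAG5 and SPAG9). The first 4 roles, 21 genes in all, are called axonemal below. Library totals ran from 7150476 to 14482856 counts. Levels are CPM on TMM-scaled library sizes, and they are compared between samples for 1 gene at a time, since CPM is not corrected for transcript length.

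The regions differed widely in these genes. In HYP 33 of the 37 genes were higher than in MeA and 3 were lower at an edgeR adjusted p under 0.05, and DNAH17 alone did not pass. That comparison called 79.8% of the 12245 genes tested in either direction, 40.8% as higher and 39% as lower in HYP, so sizes are given beside the calls. A difference of over 2-fold in favour of HYP was called for 19 of the 37 genes and for 9.1% of all genes tested, and one of over 2-fold in favour of MeA for 1 of the 37 genes and for 8.31% of all genes tested. The median log2 fold change was 1.94 over the 21 axonemal genes and 0.59 over the 12 IFT genes, against 0.01 over all genes tested. DNAH8, DNAI2, SPAG17 and TEKT2, all axonemal, met the CPM minimum through HYP alone. The rule thus favoured their direction in these counts and in the axonemal median. In bulk tissue of this kind, fewer cells of a type and less RNA per cell cannot be told apart.

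**Figure D1:**
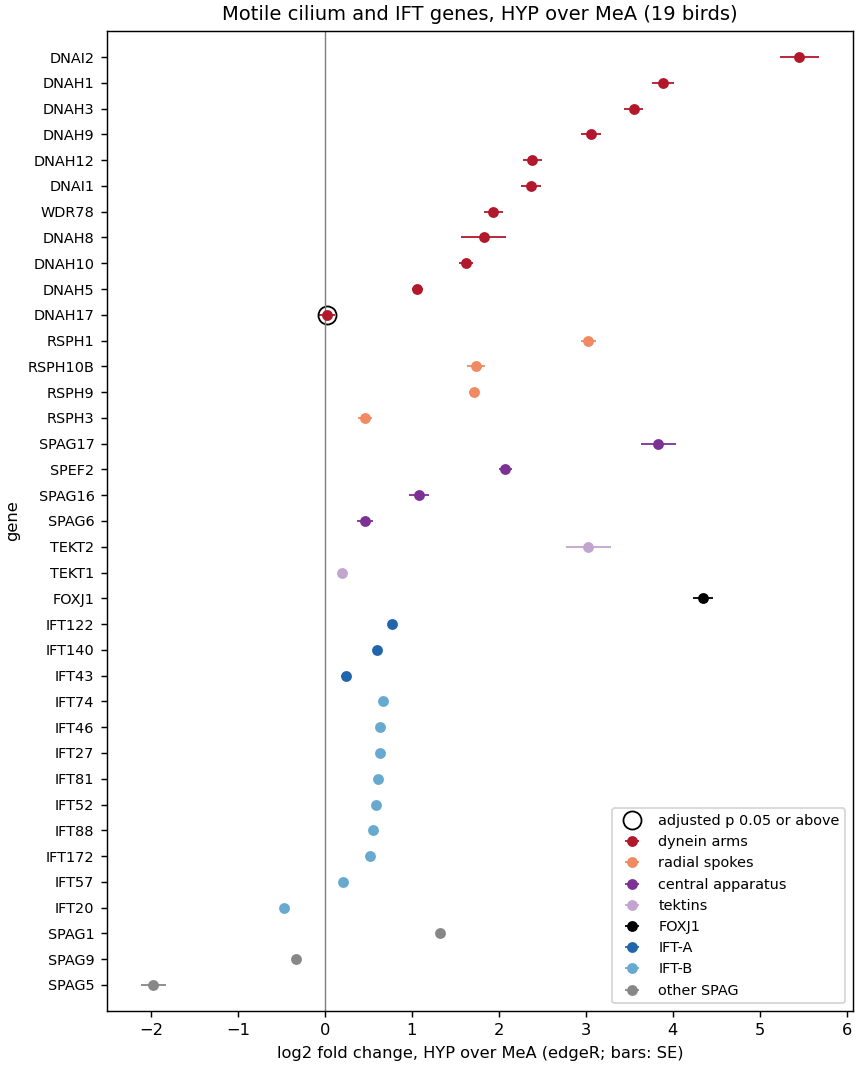
The log2 fold change of HYP over MeA is plotted for each of the 37 genes, grouped by role, with bars for the SE of the edgeR fit with the bird as a block. Axonemal genes and FOXJ1 spread from 0.02 (DNAH17, circled because it did not pass) to 5.46 (DNAI2), IFT genes lie between −0.47 and 0.77, and SPAG5 is the lowest at −1.97.

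FOXJ1 held between 19.2 and 33.1 CPM in HYP, with a median of 23.3, against 0.340 to 1.86 CPM in MeA, with a median of 1.17. The lowest HYP library thus stood far above the highest MeA library. The log2 fold change was 4.35 with an SE of 0.12, a 20.3-fold difference (edgeR adjusted p = 2.7e-20), and HYP was the higher region in 19 of 19 birds.

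Among the dynein arm genes, 10 of 11 were higher in HYP, each by over 2-fold. Over all genes tested, 40.8% were higher in HYP and 9.1% were so by over 2-fold. The 10 include DNAH8 and DNAI2, which met the CPM minimum through HYP alone, so the rule favoured their direction. DNAI2, an intermediate chain of the outer arm, held 3.13 to 8.64 CPM in HYP (median 5.27) and 0 to 0.301 CPM in MeA (median 0.0882). Its reads numbered 1114 over the HYP libraries and 20 over the MeA libraries, of which 9 had none. No MeA library came near the HYP range, and the log2 fold change of 5.46 (SE 0.22, edgeR adjusted p = 8.16e-17) was the greatest of the 37 genes. DNAI1, the partner chain of DNAI2, ran from 11.2 to 15.3 CPM in HYP (median 13.5) and from 1.11 to 4.36 CPM in MeA (median 2.62), so the groups did not overlap, and its log2 fold change was 2.37 (SE 0.11).

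DNAH5 and DNAH9 are motor heavy chains of the outer arm, and DNAH5 is among the genes most often mutated in human primary ciliary dyskinesia. DNAH9 held 26.8 to 62.0 CPM in HYP (median 46.6), against 3.04 to 8.14 CPM in MeA (median 5.17). DNAH5 held 49.8 to 112 CPM in HYP (median 79.0) and 22.9 to 47.6 CPM in MeA (median 37.7). Neither gene's regions overlapped, yet the log2 fold changes stood apart, at 3.06 (SE 0.11) for DNAH9 and 1.06 (SE 0.066) for DNAH5. DNAH17, an outer arm heavy chain best known from sperm, ran from 2.97 to 7.11 CPM in HYP (median 4.94) and from 1.61 to 7.72 CPM in MeA (median 4.59). The MeA range enclosed that of HYP, HYP was the higher region in 12 of 19 birds, and the log2 fold change was 0.02 (SE 0.097, edgeR adjusted p = 0.831).

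Inner arm heavy chains were higher in HYP as well. DNAH1 held 9.80 to 33.2 CPM in HYP (median 17.0), against 0.352 to 2.53 CPM in MeA (median 0.866). DNAH3 held 10.97 to 36.2 CPM in HYP (median 21.8), against 0.491 to 3.46 CPM in MeA (median 1.75). Both separated the regions without overlap, by log2 fold changes of 3.89 (SE 0.12) for DNAH1 and 3.55 (SE 0.11) for DNAH3. DNAH12 and DNAH10 did so too, with log2 fold changes of 2.38 and 1.63. WDR78, an intermediate chain gene needed for the assembly of axonemal dyneins, held 3.80 to 16.2 CPM in HYP (median 7.67) and 0.557 to 4.02 CPM in MeA (median 2.21). Its regions touched at the edge of their ranges, although HYP was higher within every bird (log2 fold change 1.94, SE 0.11, edgeR adjusted p = 3.69e-14).

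Parts that coordinate beating differed in size of effect. All 4 radial spoke genes were higher in HYP, as were 40.8% of all genes tested. RSPH1, a protein of the spoke head, held 17.3 to 38.2 CPM in HYP (median 26.9), against 1.88 to 5.44 CPM in MeA (median 3.14), a log2 fold change of 3.03 (SE 0.085). RSPH3, a protein of the spoke stalk, held 16.9 to 26.3 CPM in HYP (median 21.2) and 6.44 to 26.0 CPM in MeA (median 14.9). The HYP range of RSPH3 lay almost wholly within that of MeA, and its log2 fold change was 0.46 (SE 0.081, edgeR adjusted p = 1.52e-05). RSPH9 and RSPH10B, of the spoke head, lay between these, at log2 fold changes of 1.71 and 1.73.

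Central apparatus genes split in the same manner. SPAG17 held 4.23 to 9.71 CPM in HYP (median 6.16), against 0 to 1.01 CPM in MeA (median 0.390), with no read in 2 MeA libraries and no overlap (log2 fold change 3.83, SE 0.20). SPEF2 ran from 17.1 to 32.8 CPM in HYP (median 25.6) and from 3.83 to 9.76 CPM in MeA (median 5.53), also apart (log2 fold change 2.08, SE 0.079). SPAG6 ran from 9.29 to 14.9 CPM in HYP (median 11.8) and from 4.82 to 14.8 CPM in MeA (median 9.09). Its regions overlapped over most of their length, with HYP higher in 16 of 19 birds, a log2 fold change of 0.46 (SE 0.090) and an edgeR adjusted p of 5.75e-05. SPAG16 lay between, at 1.09.

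The 2 tektins lay far apart in size of effect. TEKT2 held 0.330 to 3.37 CPM in HYP (median 1.45), against 0 to 0.422 CPM in MeA (median 0.120), and 3 MeA libraries had no read. Only the edges of the ranges met, and the log2 fold change was 3.03 (SE 0.26, edgeR adjusted p = 1.26e-10), on 344 reads in HYP and 34 in MeA. TEKT1 held 18.1 to 30.2 CPM in HYP (median 23.2) and 14.9 to 29.0 CPM in MeA (median 19.96). The TEKT1 ranges overlapped broadly, with HYP higher in 15 of 19 birds and a log2 fold change of 0.20 (SE 0.045, edgeR adjusted p = 0.000353).

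**Figure D2:**
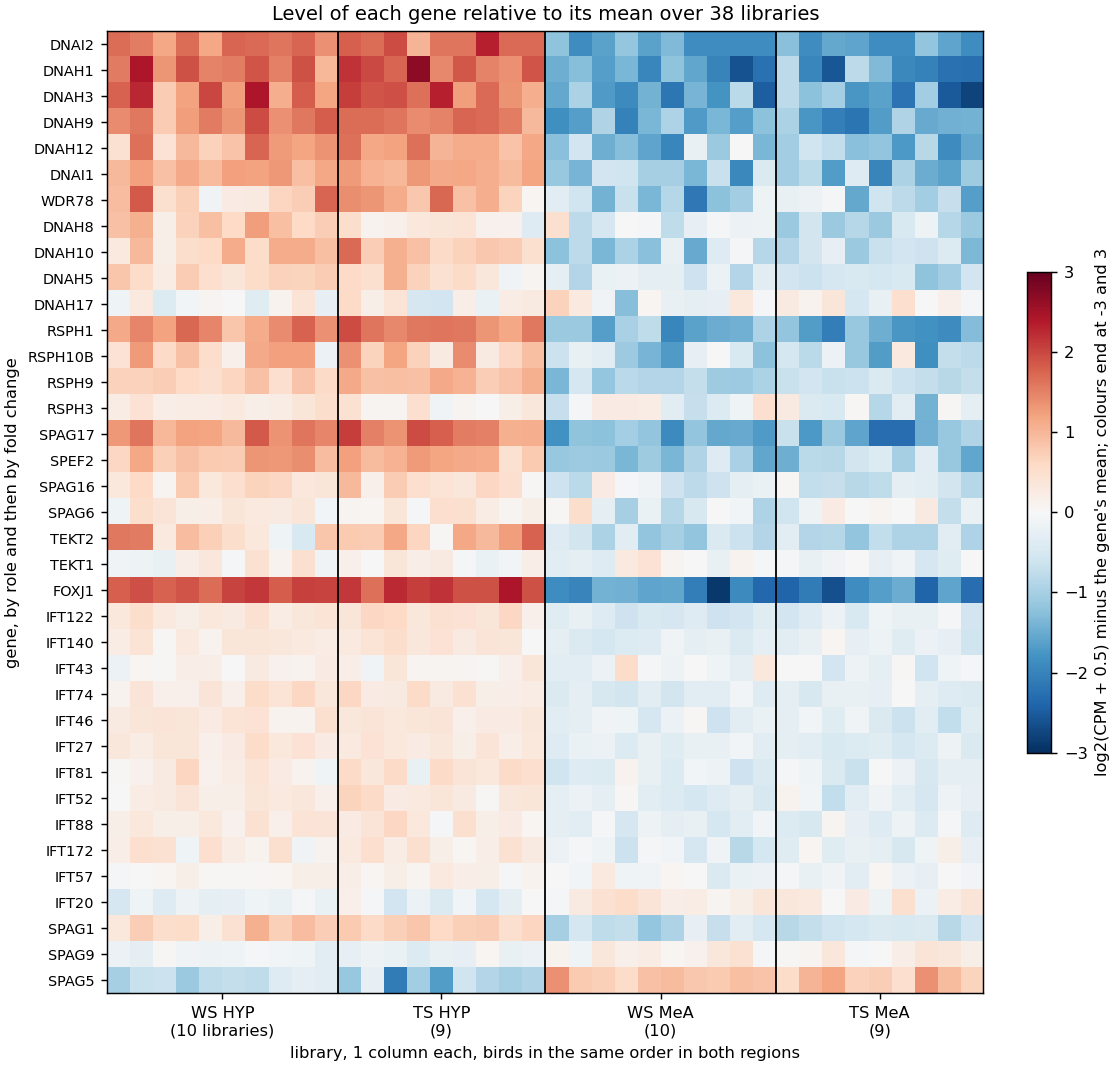
Each column is a library and each line of cells a gene, coloured by log2(CPM + 0.5) minus the gene's mean over the 38 libraries, with WS and TS libraries of HYP on the left and those of MeA on the right. FOXJ1 and most axonemal genes change colour at the border between the regions, DNAH17, SPAG6 and TEKT1 barely do so, and SPAG5 shows the opposite change.

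IFT genes moved in a narrower band. The 3 IFT-A genes and 8 of the 9 IFT-B genes were higher in HYP, none by over 2-fold. Over all genes tested, 40.8% were higher in HYP and 9.1% were so by over 2-fold. IFT122, a core protein of IFT-A, showed the greatest log2 fold change of the set, 0.77 (SE 0.031, edgeR adjusted p = 5.02e-17), with 38.1 to 53.7 CPM in HYP (median 44.3) and 22.3 to 33.5 CPM in MeA (median 26.3). IFT74, of the IFT-B core, held 53.8 to 77.2 CPM in HYP (median 60.3) and 33.9 to 50.4 CPM in MeA (median 39.8). The regions of IFT122 and IFT74 did not overlap, nor did those of IFT27 and IFT46. IFT140 and IFT172, the IFT-A and IFT-B genes with the highest CPM, had log2 fold changes of 0.60 and 0.52, with HYP higher in every bird and ranges that overlapped. IFT57 and IFT43 differed little, at 0.20 and 0.24.

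IFT20 was the exception among the IFT genes. Besides its part in IFT-B, its protein sits at the Golgi apparatus, from which it helps to send membrane proteins to the cilium. IFT20 ran from 12.5 to 20.96 CPM in HYP (median 16.4) and from 16.6 to 28.0 CPM in MeA (median 22.6). The ranges overlapped, but HYP was the lower region in all 19 birds, with a log2 fold change of −0.47 (SE 0.043, edgeR adjusted p = 5.88e-10).

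The SPAG symbol also covers genes with other roles. SPAG1, a factor that assembles dynein arms in the cytoplasm, held 27.6 to 51.4 CPM in HYP (median 40.2) and 10.7 to 20.6 CPM in MeA (median 15.8), with no overlap and a log2 fold change of 1.32 (SE 0.032). SPAG5, also called astrin, belongs to the mitotic spindle. It held 0.308 to 2.41 CPM in HYP (median 1.54) and 4.43 to 8.49 CPM in MeA (median 5.57), so that HYP lay wholly below MeA (log2 fold change −1.97, SE 0.14, edgeR adjusted p = 5.74e-12). SPAG9, a scaffold of JNK signalling and of motor transport, held 326 to 453 CPM in HYP (median 386) and 396 to 592 CPM in MeA (median 480.0), a log2 fold change of −0.33 (SE 0.029).

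Complete separation of the regions, with every HYP library above every MeA library, held for 18 of the 37 genes and for 9.72% of the genes tested. These were 12 axonemal genes, 4 IFT genes, FOXJ1 and SPAG1. The axonemal genes included DNAI2 and SPAG17, which met the CPM minimum through HYP alone. The reverse separation held for 1 of the 37 genes, SPAG5, and for 10.9% of the genes tested. HYP was higher in every bird for 27 of the 37 genes and for 21.1% of the genes tested, and lower in every bird for 3 of the 37 genes and for 20.5% of the genes tested. The 27 include DNAH8, DNAI2, SPAG17 and TEKT2, which met the CPM minimum through HYP alone.

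Summed over the 21 axonemal genes, HYP libraries held 289.6 to 475 CPM (median 391) and MeA libraries 109 to 149 CPM (median 136). The ranges lay far apart. Within a bird the HYP sum was 2.07 to 3.59 times the MeA sum, with a mean ratio of 2.94 ± 0.374 (SD, n = 19). DNAH5 supplied 20.3% of the sum in HYP and 28.3% in MeA, and TEKT1 supplied 5.98% and 15.2%, so the MeA sum rests more on the genes with small differences. For the 12 IFT genes the sums were 541 to 639 CPM in HYP and 383 to 458 CPM in MeA, with a ratio of 1.34 to 1.54 within a bird. These sums weight long transcripts and abundant genes more, and no test was made on them.

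**Figure D3:**
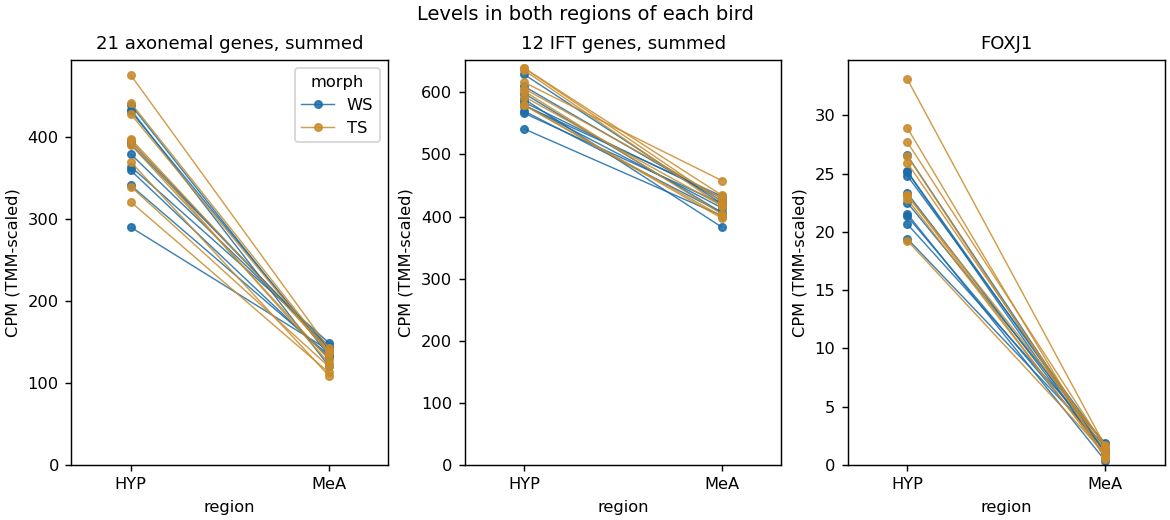
Lines join the HYP value (left) and the MeA value (right) of each bird, in TMM-scaled CPM, for the axonemal sum, the IFT sum and FOXJ1, coloured by morph. Every line falls towards MeA, by 2.07 to 3.59 times for the axonemal sum and by 1.34 to 1.54 times for the IFT sum.

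Other genes of the motile cilium, from a list of symbols outside the naming rule, were compared in the same fit. That fit called 40.8% of all genes tested as higher and 39% as lower in HYP, with a median log2 fold change of 0.01. Of 109 listed genes 72 had an entry and 68 were tested, of which 65 were higher in HYP, 1 was lower (CETN2, a centrin of the ciliary base) and 2 did not pass, with a median log2 fold change of 1.40. In fits within 1 region, 68 listed genes passed the low-count filter of edgeR in HYP and 57 in MeA. For genes that passed it through HYP alone, the filter favoured the direction, in these counts and in the median. IQCA1, with 5.04 ± 1.31 CPM across HYP and 0.0584 ± 0.0818 CPM in MeA (SD, n = 19 each), had a log2 fold change of 6.13. CCDC170 and RIBC2, a protein inside the doublets, followed at 4.57 and 4.02. Regulators that multiply centrioles and commit a cell to many cilia were higher in HYP for 10 of 15 genes tested and lower for none, with a median of 0.41. The same limit holds for them, with 15 tested within HYP and 11 within MeA. CCNO, a cyclin-like protein of multiciliated cells, averaged 14.5 ± 2.30 CPM across HYP and 0.115 ± 0.129 CPM in MeA (SD, n = 19 each), a log2 fold change of 6.82. TP73, a relative of p53 that acts upstream of FOXJ1, differed by 4.78 and CCDC67, also named DEUP1, a protein of the deuterosome on which centrioles are made, by 4.25. E2F4 and E2F5, which serve cell cycle control as well, did not pass, at log2 fold changes of −0.02 each.

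Genes of the primary cilium and of the BBSome, its membrane cargo adaptor, were higher in HYP for 36 of 49 genes tested and lower for 7, with a median log2 fold change of 0.38. Over all genes tested the shares were 40.8% higher and 39% lower, with a median of 0.01. Their summed level was 2935 to 3236 CPM in HYP and 2563 to 2877 CPM in MeA. Every HYP library lay above every MeA library in that sum, with a smaller ratio than for the axonemal sum.

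Markers of cell types that could carry or surround these cilia were compared too, where 40.8% of all genes tested were higher and 39% lower in HYP. The counts of calls for ependymal and choroid plexus markers lay near those shares. Ependymal markers outside the cilium split, with 3 of 8 tested genes higher in HYP (S100B, CDH2 and CTNNB1), 3 lower (AQP4, GJA1 and ENPP2) and 2 that did not pass, and their summed level was 2181 to 2622 CPM in HYP and 2061 to 3317 CPM in MeA. Those genes are shared with astrocytes and other cells, and their median log2 fold change was −0.03. Which cells carried the cilium genes was not tested. Tanycyte markers, of the elongated glia in the floor of the third ventricle, were higher in HYP for 7 of 12 genes tested and lower for 3, and they summed to 923 to 2333 CPM in HYP and 236 to 325 CPM in MeA. Within HYP 12 of them passed the low-count filter and within MeA 10, so the filter favoured HYP for some. The gene with the highest CPM among them, the thyroid hormone binding protein gene CRYM, which neurons also express, had a log2 fold change of 4.58. Choroid plexus markers, from the other ciliated epithelium of the ventricles, were higher in HYP for 5 of 13 genes tested and lower for 6, with sums of 392 to 507 CPM in HYP and 630.1 to 941 CPM in MeA. Within HYP 12 of them passed the low-count filter and within MeA 9. Among them SOSTDC1 had a log2 fold change of 3.59 and the water channel gene AQP1 one of −3.31, and KCNJ13 and CLDN2 stood below 0.1 CPM in both regions.

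Markers of most other brain cell types were more often lower in HYP, where 39% of all genes tested were lower and 40.8% higher. Their median log2 fold changes were −0.67 for astrocyte and radial glia, −1.33 for oligodendrocyte and −0.67 for microglia markers. For endothelial and leptomeningeal markers the median was −0.53 and for neuron markers −0.86, against 0.01 over all genes tested. Astrocyte and radial glia markers were lower in HYP for 8 of 9 genes tested, with summed levels of 5411 to 6910 CPM in HYP and 8464 to 12092 CPM in MeA. Oligodendrocyte markers were lower for 5 of 5, microglia markers for 5 of 5, endothelial and leptomeningeal markers for 8 of 10, and neuron markers for 7 of 10, with 3 neuron markers higher. The part of these cell types in the differences of the cilium genes was not tested.

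Birds differed in how much of the axonemal set they showed in HYP. Bird Sample_23607 (TS, SY) had the highest HYP sum, 475 CPM, and bird Sample_23599 (WS, ASY) the lowest, 289.6 CPM. In MeA the highest was bird Sample_23601 (WS, ASY) at 149 CPM and the lowest bird Sample_23626 (TS, SY) at 109 CPM. A bird's place in one region told little of its place in the other, with a Pearson r of 0.24 and a Spearman rho of 0.19 between the HYP and MeA sums of 19 birds, and r of 0.23 without the 2 birds farthest from the median. These correlations are descriptions, and libraries of a region share processing and the closed sum of CPM.

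In HYP the axonemal genes tended to vary together between birds. Correlated with the summed CPM of the other axonemal genes, log2(CPM + 0.5) gave a median r of 0.45 over the 21 genes, and 38.1% of them exceeded 0.5, against 5.04% of the 11786 other genes at 1 CPM or more. SPAG17 had the highest r at 0.82, and DNAH12 and SPEF2 followed at 0.76 each. TEKT2 was the lowest at −0.15, below SPAG6 at 0.04 and DNAI2 at 0.13. FOXJ1 itself had an r of 0.25 with the axonemal sum, a rho of 0.48, and an r of 0.54 without the 2 birds farthest from the median. TEKT2 rested on 344 reads over the 19 HYP libraries.

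In MeA the shared variation was weak. Its median r was 0.05, none of the 21 genes exceeded 0.5, and 3.3% of 11658 other genes did. DNAI1 (0.43), RSPH1 (0.41) and SPAG16 (0.40) were highest, and SPEF2 (−0.41), SPAG6 (−0.36) and RSPH9 (−0.32) lowest. SPEF2 thus sat near the top in HYP and at the bottom in MeA. Several axonemal genes had few reads in MeA, among them DNAI2 with 20 and DNAH8 with 57 over the 19 libraries. Low counts limit r for such genes, and the part of counting noise in the weaker r of MeA was not tested.

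**Figure D4:**
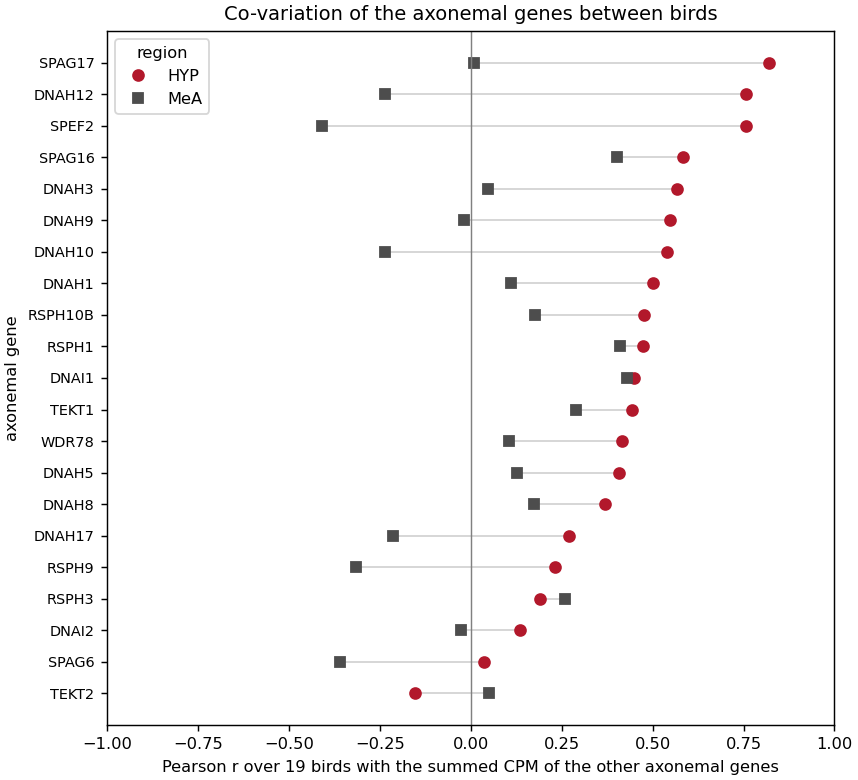
For each axonemal gene the Pearson r over 19 birds with the summed CPM of the other axonemal genes is shown in HYP (circles) and in MeA (squares). HYP values run from −0.15 to 0.82, and MeA values from −0.41 to 0.43.

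Other measures that moved with the HYP axonemal sum across the 19 birds included the summed motile cilium genes outside the rule, with an r of 0.86 and a rho of 0.89. The IFT sum had an r of 0.54. Neuron markers had an r of −0.55, astrocyte markers −0.43 and the library total −0.37. The first axis of variation of all genes in HYP, which held 11.4% of the variance, had an r of −0.62, which became −0.39 without the 2 birds farthest from the median. In MeA the strongest of these relations was that with choroid plexus markers, at an r of −0.59 and a rho of −0.63. Astrocyte markers had an r of 0.45 there, opposite in sign to that in HYP. Neuron markers had −0.11 in MeA and the motile cilium genes outside the rule 0.21. Without the 2 birds farthest from the median these became 0.19 and 0.50. The part of cell composition or sampling in this variation was not tested.

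Among 11363 genes at 1 CPM or more, those outside the set whose levels followed the axonemal sum best in both regions were ARNTL2, with r of 0.84 in HYP and 0.57 in MeA, KCNT2 (0.73 and 0.57) and ACER3 (0.64 and 0.63). COL4A1, GALNT11, FAM161B, PPT1, METTL21C, PNN, MFF, LRRFIP2, ARHGAP24, TRMT6, C1QTNF3 and KPNA3 came next, with mean r between 0.56 and 0.63. They are named for likeness over 19 birds in each region and for nothing more.

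Few motile cilium genes differed between the morphs. In HYP 1 of the 37 genes was called between WS and TS, where 0.796% of 11930 genes tested were (0.327% as lower in WS), and in MeA 0 of 33 were, where 0.523% of 11672 genes were. The other 4 genes (DNAH8, DNAI2, SPAG17 and TEKT2) were too low for the test within MeA. At an unadjusted p under 0.05 there were 3 genes in HYP and 2 in MeA, where 7.59% and 8.85% of all genes tested were, and DESeq2 called 1 gene in HYP and 0 in MeA. Of the motile cilium genes outside the rule, 1 of 68 was called in HYP, as higher in WS, and 0 of 57 in MeA. At an unadjusted p under 0.05 there were 9 of the 68 in HYP and 4 of the 57 in MeA. In HYP the axonemal sum was 382 ± 46.7 CPM in the 10 WS birds and 395 ± 48.7 CPM in the 9 TS birds (SD), a difference within the spread between birds. Among ASY birds it averaged 373 ± 47.2 CPM in 8 WS and 359 ± 54.5 CPM in 2 TS birds (SD). Among SY birds it averaged 417 ± 31.6 CPM in 2 WS and 405 ± 45.9 CPM in 7 TS birds (SD). Within each age class the sum was thus higher in WS, by less than the spread between birds. In MeA it ran from 121 to 149 CPM in WS birds (median 138) and from 109 to 142 CPM in TS birds (median 129), with broad overlap.

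The called gene of the 37 was RSPH9, which encodes a protein of the radial spoke head. In HYP it ran from 11.7 to 15.6 CPM in WS (median 13.5) and from 14.1 to 18.9 CPM in TS (median 16.1). The morphs overlapped at the edges, with 7 of 10 WS birds below the lowest TS bird and all 10 below the TS mean. The log2 fold change was −0.31 (SE 0.070, edgeR adjusted p = 0.031). In MeA RSPH9 held 2.88 to 5.74 CPM in WS (median 4.19) and 4.46 to 6.002 CPM in TS (median 5.06), a like log2 fold change of −0.30 (SE 0.12) that did not pass (edgeR adjusted p = 0.439). The morph by region interaction was 0.00081 (edgeR adjusted p = 0.997), too near 0 for a steady SE by the way it was taken here. In HYP the call was lost with age class in the model (log2 fold change −0.32, edgeR adjusted p = 0.177) and among stage E birds (−0.29, edgeR adjusted p = 0.252). It was lost too without the 4 birds at the ends of the first axis of variation of HYP (−0.31, edgeR adjusted p = 0.144) or of MeA (−0.34, edgeR adjusted p = 0.0641). It was also lost on leaving out any one of birds Sample_23540, Sample_23600, Sample_23601, Sample_23602, Sample_23607, Sample_23617, Sample_23620, Sample_23623, Sample_23710 and Sample_23711, with log2 fold changes of −0.31 to −0.29 and edgeR adjusted p of 0.0508 to 0.0743. Within the 8 WS and 2 TS birds labelled ASY, RSPH9 in HYP averaged 13.6 ± 1.45 and 16.6 ± 1.46 CPM (SD), and within the 2 WS and 7 TS birds labelled SY it averaged 13.2 ± 0.903 and 16.8 ± 1.83 CPM (SD).

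DNAH8, a heavy chain best known from the outer arm of sperm, was next. In HYP it ran from 0.725 to 2.08 CPM in WS (median 1.41) and from 0.337 to 1.07 CPM in TS (median 0.718), on 155 and 79 reads. The morphs overlapped, with 9 of 10 WS birds above the TS mean, and the log2 fold change of 0.85 (SE 0.21) stayed just outside the threshold (edgeR adjusted p = 0.0529). In MeA the WS libraries held 45 reads and the TS libraries 12, and 4 TS libraries had none. That was too few to pass the low-count filter of the edgeR fit. All 10 WS birds lay above the TS mean of 0.135 CPM there, the lowest of them by a margin of less than 1 read, at 0.137 CPM. The ranges overlapped, at 0.137 to 1.02 CPM in WS (median 0.474) and 0 to 0.488 CPM in TS (median 0.0992). DNAH8 was called in HYP without bird Sample_23599 (log2 fold change 0.92), without bird Sample_23607 (0.92), and without the 4 birds at the ends of the first axis of HYP (1.03). In the other 25 of 28 alternatives it was not called, among them stage E birds alone (0.89, edgeR adjusted p = 0.334) and limma on the deposited values, where the difference was 0.13 on their variance-stabilized log2 scale (adjusted p = 0.0603). IFT81, a tubulin-binding protein of IFT-B, had a log2 fold change of −0.21 in HYP (SE 0.095, edgeR adjusted p = 0.626). Leaving out the 4 birds at the ends of the first axis of MeA gave −0.36, which was called.

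In the RefSeq gene table of the assembly bZonAlb1.hap1, 34 of the 37 genes had an entry, and 4 of them, RSPH9, DNAH8, RSPH3 and IFT172, lay on the chromosome of ESR1, a gene of the ZAL2 rearrangement. On that chromosome 82 of 875 genes tested in HYP were called between the morphs, 9.37%, against 4 of 9750 genes placed elsewhere, 0.041%. Of the genes of the set with an entry, 1 of 4 was called there and 0 of 30 elsewhere. Since the authors' genome build remains not given in the sources used here, positions serve only to say which genes share a chromosome. RSPH3 and IFT172 had no difference between morphs that passed in either region.

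In MeA, DNAH5 had an unadjusted p under 0.05, at 40.7 ± 7.21 CPM in the WS birds and 34.0 ± 5.79 CPM in the TS birds (SD, n = 10 and 9), and its log2 fold change was 0.26 (SE 0.11, edgeR adjusted p = 0.53). IFT27 followed, at 0.11 (SE 0.054, edgeR adjusted p = 0.567). FOXJ1 did not pass in either region, with HYP levels of 23.1 ± 2.33 CPM in WS birds and 25.6 ± 4.08 CPM in TS birds (edgeR adjusted p = 0.725), and MeA levels of 1.24 ± 0.489 CPM in WS birds and 1.07 ± 0.449 CPM in TS birds (edgeR adjusted p = 0.834). WDR78 did not pass either, at log2 fold changes of −0.21 in HYP and −0.27 in MeA.

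Whether morph shifted the difference between regions was asked with an interaction, and 0 of the 37 genes passed, where 3 of 12245 genes did (0.0245%), with 2 of the 37 and 10.5% of all genes at an unadjusted p under 0.05. RSPH1 came nearest. In HYP it averaged 25.4 ± 5.15 CPM in WS birds and 28.8 ± 4.50 CPM in TS birds, and in MeA 3.68 ± 1.09 CPM in WS birds and 2.91 ± 0.778 CPM in TS birds (SD, n = 10 and 9), an interaction of −0.51 on the log2 scale (SE 0.15, edgeR adjusted p = 0.315). IFT81 (−0.16) and TEKT1 (−0.15) followed. The ratio of the HYP to the MeA axonemal sum was 2.80 ± 0.440 in WS birds and 3.10 ± 0.210 in TS birds (SD), with a range of 2.07 to 3.59 in WS that enclosed the 2.83 to 3.40 of TS.

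**Figure D5:**
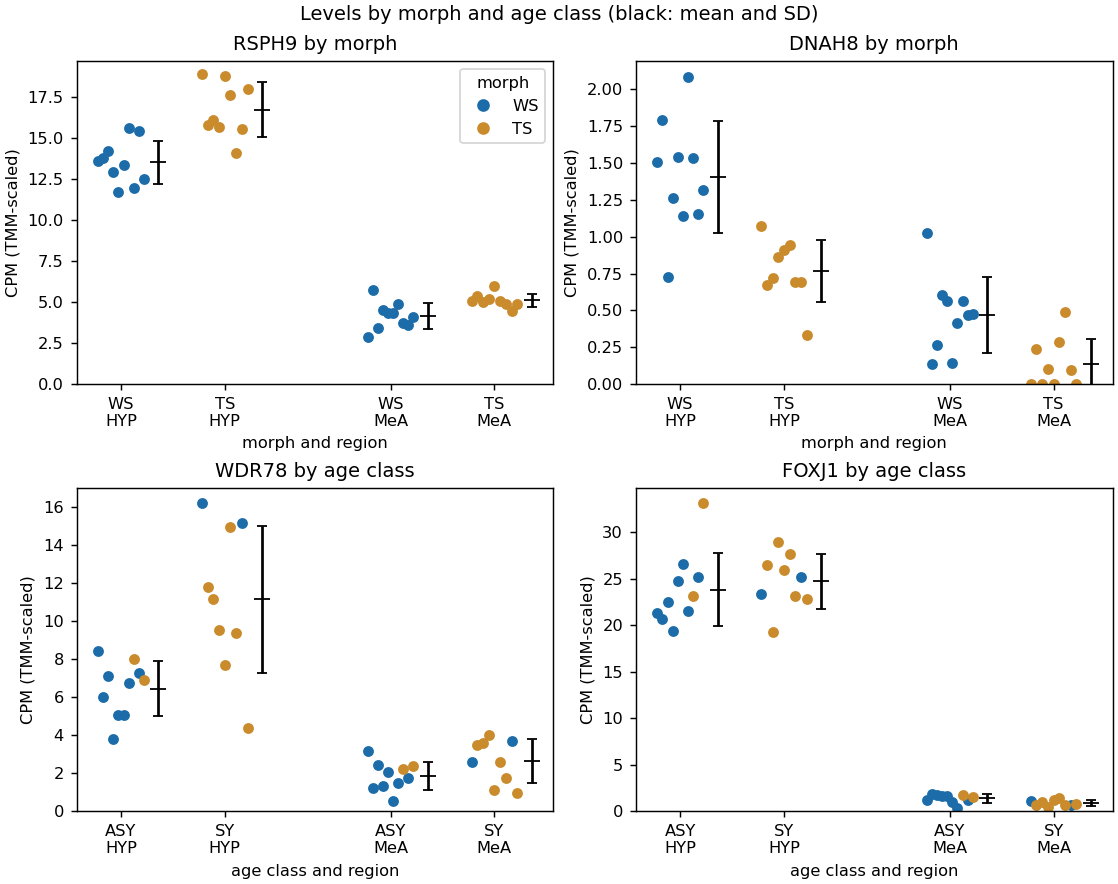
Points are libraries coloured by morph, in TMM-scaled CPM, with the mean and SD in black, for RSPH9 and DNAH8 by morph (WS left of TS) and for WDR78 and FOXJ1 by age class (ASY left of SY), in HYP and in MeA. RSPH9 sits lower in WS in both regions and DNAH8 higher, all 10 ASY birds lie below the SY mean for WDR78 in HYP, and the groups overlap in every panel.

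Age class gave no call. With morph in the model, 0 of 37 genes passed between ASY and SY birds in HYP and 0 of 33 in MeA, where 0% of all genes did in either region. In HYP 3 of the 37 genes had an unadjusted p under 0.05, as did 4.71% of all genes tested, in MeA 2 of 33 did, as did 3.58% of all genes, and DESeq2 called none of them. The axonemal sum in HYP was 370.4 ± 45.8 CPM in ASY and 408 ± 41.6 CPM in SY birds (SD, n = 10 and 9), and in MeA 135 ± 11.2 CPM in ASY and 130.3 ± 11.1 CPM in SY birds. Age class and morph were uneven across the birds, so within-morph values are given beside the leading gene.

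WDR78 was that gene. In HYP it ran from 3.80 to 8.41 CPM in ASY (median 6.82) and from 4.38 to 16.2 CPM in SY birds (median 11.2). All 10 ASY birds fell below the SY mean, the ranges overlapped, and the log2 fold change was −0.89 (SE 0.22, edgeR p = 0.000444 unadjusted and 0.876 adjusted). Among WS birds the 8 labelled ASY held 3.80 to 8.41 CPM and the 2 labelled SY held 15.1 and 16.2 CPM. Among TS birds the 2 labelled ASY held 6.90 and 7.99 CPM and the 7 labelled SY held 4.38 to 14.9 CPM, so ASY lay inside the SY range there. In MeA the log2 fold change of WDR78 was −0.48 (SE 0.34, edgeR adjusted p = 1.00).

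DNAH12 in HYP averaged 19.5 ± 5.83 CPM in ASY and 24.8 ± 4.64 CPM in SY birds (SD, n = 10 and 9), with a log2 fold change at −0.42 (SE 0.17, edgeR adjusted p = 0.986). IFT46 differed by −0.14. In MeA SPAG9 averaged 511 ± 45.5 CPM in ASY and 464 ± 56.9 CPM in SY birds, a log2 fold change of 0.22 (SE 0.081, edgeR adjusted p = 1.00). FOXJ1 in MeA averaged 1.39 ± 0.471 CPM in ASY and 0.901 ± 0.311 CPM in SY birds, on 145 and 77 reads, with 9 of 10 ASY birds above the SY mean and a log2 fold change of 0.74 (SE 0.31, edgeR adjusted p = 1.00). In HYP FOXJ1 showed no such difference, at 0.05 (SE 0.10, edgeR adjusted p = 0.994). The age class by region interaction passed for 0 of 37 genes, and for 0% of all genes tested, with FOXJ1 at −0.70 (SE 0.30, edgeR adjusted p = 0.999) and SPAG9 at −0.15 the 2 of 37 at an unadjusted p under 0.05, where 4.07% of all genes were.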

How the data were processed

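RNA-seq was made from 38 libraries, HYP and MeA of 19 birds. The authors deposited a table of read counts per gene, whole numbers that are not normalized, and, per the labels, 1 table per region of variance-stabilized values on an approximately log2 scale. The tools named, per the submitters' processing notes, include STAR, HTSeq, Novoalign, SAMtools, GATK and DESeq2. Versions, genome build, strand use and the handling of reads that match several genes remain not given in the sources used here, so overlapping or near-identical genes may share reads. Among the columns of counts, 2 match no listed sample and were not used.

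Counts were fitted for all genes with edgeR 4.0.16 in R 4.3.3 (TMM, filterByExpr, glmQLFit and glmQLFTest), with Benjamini-Hochberg adjustment across every gene tested and a call at an adjusted p under 0.05. The comparison of regions and the interactions had the bird as a block, WS against TS was fitted within a region with morph alone, and ASY against SY with morph in the model. An SE is the size of the log2 fold change divided by the root of the F statistic, which is unsteady where the change is close to 0. The steps were run on simulated counts with noise between libraries and 2-fold changes planted in some genes of higher counts. Apart from these changes, expected levels did not differ between birds beyond library size. No change was planted in a gene of few reads, so the simulation did not cover such genes. A minimum share of recovered changes was required for every comparison except the interactions. Alternatives used DESeq2 1.42.0, limma 3.58.1 on the deposited log2-scale values, RLE factors, library totals, no low-count filter, edgeR's robust option, stage E birds, other covariates and single birds left out. Runs without the 4 birds at the ends of the first axis of variation of a region were added after seeing the data.

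The members, role classes, gene lists and tests were chosen with earlier results of these data known. Genes named are FOXJ1 and WDR78, up to 12 called genes with the largest absolute log2 fold change in each direction between the regions, the gene of highest CPM and those not passing in each role, the called genes and the 3 lowest p-values in each other comparison, the 3 highest and 3 lowest in co-variation, the 15 most alike other genes, and the 3 largest changes per list. Remaining members are given for completeness, and other list genes named were chosen after their values were seen.

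Birds are the replicates. Libraries of the same group differed by more than sampling noise (chi-square per degree of freedom 5.22 to 35.9), so none was counted as a repeat. The band number in the titles pairs the regions, and over 9149 genes the deviations of same-numbered libraries correlated at 0.251 to 0.523, above the highest value of 0.21 for different birds, in 19 of 19 birds. Totals of 7150476 to 14482856 counts make 1 CPM worth about 7 to 14 reads, so genes under 1 CPM rest on few reads. PCR reads are not independent molecules, and no counting interval is given.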

Additional observations from a re-analysis of the deposited data

Results flagged for a closer look

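Within a group of birds, a library was marked where its gap to the nearest other library was wide for the range of the group by Dixon's criterion. Of 156 groups examined, by region and morph for each of the 37 genes and for the axonemal and IFT sums, 11 held such a library, and chance alone marks about 1 group in 20. Bird Sample_23607 had 2 of them in HYP of TS birds, DNAH10 at 47.9 CPM beside a next value of 30.9 CPM, and RSPH1 at 38.2 CPM beside 29.9 CPM, and it also had the highest axonemal sum. In HYP, bird Sample_23615 stood apart among TS birds with DNAH1 at 33.2 CPM (next 22.9 CPM) and with a low IFT81 at 44.8 CPM (next 66.1 CPM). Bird Sample_23711 of TS was low in DNAH9, at 30.9 CPM beside 42.6 CPM. Bird Sample_23596 of WS was high in DNAH1, at 27.4 CPM beside 19.0 CPM. In MeA of WS birds, bird Sample_23540 was high in DNAH8, at 1.02 CPM on 11 reads, and in SPAG5, at 8.47 CPM. Bird Sample_23617 was high in SPEF2, at 9.18 CPM beside 6.27 CPM. IFT74 in MeA was high in bird Sample_23625 among WS birds, at 46.9 CPM, and in bird Sample_23623 among TS birds, at 50.4 CPM.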

How the results depend on the processing

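Between HYP and MeA, 33 genes higher and 3 lower were called under every alternative run (RLE factors, library totals, robust option, DESeq2, no low-count filter, no replicate block, 19 single birds left out and either set of 4 birds left out), except that a minimum of 2 CPM left 35 genes with 31 higher and 3 lower. Without the replicate block the count was also 36 of 37 for the regions and 0 for both interactions, and over all genes 9219 were called between regions and 2 in the morph by region interaction, against 9772 and 3 with the block. Library totals in place of TMM moved the median log2 fold change of all genes to 0.17 and that of the axonemal genes to 2.09, and 65.2% of all genes were then positive, against 51.1%. The log2 ratio of the axonemal sums, 1.54 over 19 birds, was 1.78 as a mean of log2 values, where every gene weighs the same. Between WS and TS in HYP the count of 1 became 0 among stage E birds and 0 with age class added, and it ranged from 0 to 2 over single birds left out. Either set of 4 birds left out again gave 1 gene, but DNAH8 or IFT81 in place of RSPH9. Without the ends of the HYP axis, 22 of 37 genes had a positive log2 fold change for WS, where 50.1% of all genes tested had. With all birds 9 of 37 had, where 49.8% of all genes tested had. Most of these differences were small, with a median over the 37 genes of 0.01 and −0.06 in turn. Counts of 0 stayed 0 for WS against TS in MeA, age class and both interactions. The causes of these shifts were not tested. Depth limits DNAH8, DNAI2, SPAG17 and TEKT2 in MeA, with 20 to 79 reads each.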

Other observations

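The count table also holds 20 entries under LOC identifiers to which the RefSeq gene table gives names of the kind collected here, mostly of the CFAP family of cilia and flagella associated proteins. They were described apart, since their names are not in the deposited table. Of these, 18 were higher in HYP, 1 was lower and 1 did not pass (edgeR, adjusted p under 0.05), with a median log2 fold change of 1.34. All 20 passed the low-count filter within HYP and 15 did within MeA. For the others the filter favoured the direction, in these counts and in the median. Over all genes tested 40.8% were higher and 39% lower, with a median of 0.01. CFAP44, which tethers inner arm dynein heads in the alga Chlamydomonas and the ciliate Tetrahymena, averaged 9.53 ± 1.83 CPM across HYP and 0.0962 ± 0.0884 CPM across MeA (SD, n = 19 each), a log2 fold change of 6.39 (SE 0.16). TEKT4, another tektin, differed by 5.78 on 3 reads in MeA, and CFAP221, of the central apparatus, by 4.03. CFAP54, also of the central apparatus, differed by 2.18 and CFAP161, a protein inside the doublets, by 2.12. CFAP410, which lies at the base of cilia, was lower in HYP by 0.33 on the log2 scale (SE 0.054), with 42.1 ± 7.64 CPM across HYP and 52.8 ± 9.29 CPM in MeA. CFAP20, which binds microtubules in primary as well as motile cilia, had 76.9 ± 4.52 CPM in HYP and 78.8 ± 7.12 CPM in MeA and did not pass (log2 fold change −0.03, SE 0.031). Between WS and TS, 0 of 20 entries were called in HYP and 0 of 15 in MeA, where 0.796% and 0.523% of all genes tested were. At an unadjusted p under 0.05 there were 4 in HYP and 3 in MeA, where 7.59% and 8.85% of all genes were.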
